A study of Mus musculus with 2 samples.

Results

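Connexins are the proteins that form gap junctions, and this account follows 8 connexin genes (Gja1, Gja4, Gja5, Gjb2, Gjb6, Gjc1, Gjc3 and Gjd2) of the 33456 genes listed in each count table. The genes were taken by symbol and were described across classes of cells named from marker genes. The tissue was ciliary epithelium dissected from eyes of untreated wild-type C57BL/6 mice on postnatal day 35 and dissociated with collagenase. It was measured by droplet-based single-cell RNA sequencing in 2 libraries of 1 group. Library 1 pooled 3 sets of eyes, and for library 2 the labels give 3 sets in 1 place and 4 in another. Every value therefore has n = 2 pools, and nothing in the labels ties a cell to an animal.

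A connexon is a ring of connexin subunits in the cell membrane, and it docks with a connexon of the neighbouring cell to form a channel for ions and small metabolites. The ciliary epithelium is a bilayer in which the pigmented cells face the stroma and the non-pigmented cells face the aqueous humour. The layers meet at their apical membranes, and gap junctions there and within each layer couple them into a syncytium that secretes the aqueous humour. Gja1 encodes the connexin best known in that bilayer. Gja4, Gja5 and Gjc1 are known from blood vessels, Gjb2 and Gjb6 from the cochlea and the skin, Gjc3 from myelinating glia of rodents, and Gjd2 from electrical synapses between neurons.

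Library 1 held 4764 cell barcodes with 22510387 unique molecular identifiers (UMIs, each standing for a captured RNA molecule), and library 2 held 6220 barcodes with 30683405 UMIs. After filtering, 3865 cells (median 4128 UMIs) and 5466 cells (median 2968 UMIs) remained, and 8 of the kept barcodes occurred in both libraries. These cells fell into 26 clusters and 23 classes, of which 1 stayed unnamed and is called here by its leading genes Tagln, Lypd1 and Acta2. The dissected tissue held far more than the bilayer: the non-pigmented class had 142 and 145 cells, the pigmented class had 140 and 219 cells, and rods made up 9.73% of library 1 and 32.3% of library 2. All 11 non-pigmented markers listed in the files had UMIs in the non-pigmented class, with summed levels of 5879 and 5462 CPM (counts scaled to a class total of 1000000 UMIs), against 51.8 and 81.7 CPM in the pigmented class. Pigment-cell markers were also present in the non-pigmented class, where all 10 markers of the pigmented class summed to 5611 and 6738 CPM, against 27251 and 25754 CPM in the pigmented class itself. A neuronal class met all 7 cone bipolar markers, but its 10 leading genes held only 1 of them, Cabp5, beside the rod bipolar markers Pcp2, Grm6 and Isl1, and it is called mixed bipolar here. Iris pigment cells as a whole have no marker list here and could be among the pigmented cells. The pigmented class met 3 markers of a separate list for pigmented myoepithelium. Whether any of its cells came from the iris was not tested.

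UMIs of a gene also occur in cells that do not express it, from free RNA. T or NK cells were taken here as the class that shows background. For Gja1 they had 0 UMIs in 58 cells of library 1, which allows up to 16.5 CPM (3 counts of the class total). In library 2 they had 8 UMIs (30.4 CPM) in 67 cells. For Gjd2 the same class had 0 UMIs in library 1 and 3 UMIs (11.4 CPM) in library 2. Levels near these were read as background, and the background was higher in library 2. That T or NK cells make no Gja1 was assumed and not tested. Some classes of library 2 had less Gja1, such as GABAergic amacrine cells (13.2 CPM) and retinal ganglion cells (3.38 CPM). Rod markers, which neither layer should carry, summed to 404 CPM in the non-pigmented and 270.2 CPM in the pigmented class of library 1, and to 2360.3 and 2525 CPM in those of library 2.

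**Figure D1:**
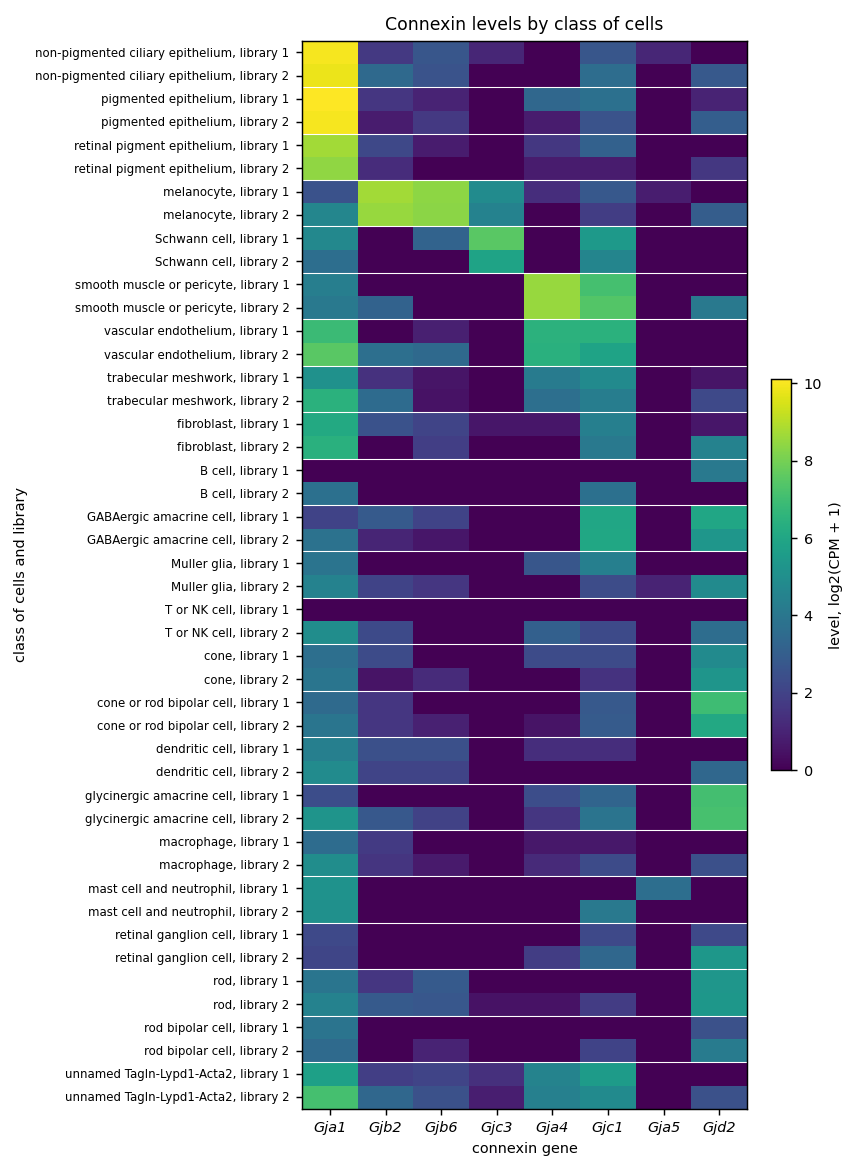
Heat map of log2(CPM + 1) for the 8 connexin genes (columns) in each of the 23 classes and both libraries (rows). Gja1 is brightest in the rows of the ciliary bilayer, Gjb2 and Gjb6 in melanocytes, Gjc3 in Schwann cells, Gja4 in the smooth muscle or pericyte class and Gjd2 in amacrine and mixed bipolar cells (labelled cone or rod bipolar cell), while Gja5 has at most 2 UMIs in any class (its brightest cell, mast cells and neutrophils of library 1, is 1 UMI).

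The connexin genes differed in the classes where they were highest, as the heat map of the 8 genes shows. Counts were summed per class and library for 22 classes, each with 20 or more cells per library, and fitted together with edgeR's quasi-likelihood test, with class and library as terms. A gene was called when its Benjamini-Hochberg adjusted p was under 0.05 and its absolute log2 fold change was at least 1. Of the 8 members, 7 passed the filter on low counts, and Gja5 did not. Those 7 genes in 22 classes made 154 comparisons of a class with the mean of the other classes, and 27 of them (17.5%) were called higher and 9 (5.84%) lower. Over all 7072 genes tested, 14.8% of such comparisons were called higher and 3.21% lower. The share of higher calls among connexins was thus near that of other genes. All 9 lower calls were of Gja1 (6) and Gjc1 (3). Gja1 and Gjc1 had UMIs in every one of the 22 classes. The other tested members had between 3 and 16 classes with 0 UMIs in both libraries, which the mean of the other classes includes. None of these members was called lower in any class. Against a mean with such classes a lower call was hardly possible, so its absence says nothing about these members.

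Gja1 was by far most abundant in the ciliary bilayer. The non-pigmented class had 1017 CPM (926 UMIs, exact Poisson 95% interval 952 to 1084) in library 1 and 904 CPM (897 UMIs, 846 to 966) in library 2, and the pigmented class had 1105 CPM (1068 UMIs, 1040 to 1174) and 999 CPM (1382 UMIs, 947 to 1053). The ranges of the layers over the libraries overlapped. Such intervals, here and below, cover counting error only.

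Gja1 lies on chromosome 10 (GRCm38) at 56377330 to 56402513 on the plus strand. The difference between the layers was small against its error. The log2 fold change of the non-pigmented over the pigmented class was -0.13 ± 0.38 (SE), with a 95% interval of -0.91 to 0.64 and an adjusted p of 0.937 (edgeR), so a difference of either sign within that interval was not detectable here. The value was -0.66 (adjusted p = 0.451) when cells were limited to 15% mitochondrial UMIs. It was -0.46 (adjusted p = 0.554) without the non-pigmented sub-cluster rich in pigment genes and Krt18, an alternative chosen after the data were seen. None of the 7 tested connexins was called between the layers, where 4.19% of all tested genes were called higher and 2.81% lower, and none was by DESeq2. Gja4 was the 1 member with an unadjusted p under 0.05, and its adjusted p was 0.0834 (edgeR). It had 0 and 0 UMIs in the non-pigmented class, which allows up to 3.29 and 3.02 CPM, and 9 and 1 UMIs in the pigmented class.

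Against the mean of the other 20 classes, Gja1 was higher in the bilayer by a log2 fold change of 5.38 ± 0.17 (SE, adjusted p = 8.32e-24, edgeR). It was the 1 member called in that comparison, in which 18.1% of all tested genes were called higher and 2.39% lower. The median log2 fold change of all tested genes was 0.19. Gja4 and Gjc3 could not have been called there in either direction. They had 0 UMIs in both libraries in 6 and 16 of the 22 classes, on both sides of the comparison. Taken class by class, the log2 fold change was 5.05 ± 0.21 in the non-pigmented class and 5.19 ± 0.20 in the pigmented class, where 16.4% and 17.4% of all tested genes were called higher. The non-pigmented class held 29.2% and 24.5% of all Gja1 UMIs of the libraries, and the pigmented class 33.6% and 37.8%.

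Retinal pigment epithelium, which shares its pigment genes and its embryonic origin in the optic cup with the bilayer, had the next level of Gja1 at 419 CPM in library 1 and 340.0 CPM in library 2. The pigmented class was higher than this class in both libraries, and the ranges did not overlap. Against the mean of all other classes Gja1 was itself higher in retinal pigment epithelium by 4.02 ± 0.23 on the log2 scale (edgeR adjusted p = 3.90e-17), where 18.9% of all tested genes were called higher. That value was 3.41 without library 1 and 4.57 without library 2. The fitted log2 fold change of pigmented over retinal pigment epithelium was 1.12 ± 0.39 (SE, 95% interval 0.33 to 1.91), with an adjusted p of 0.0490 (edgeR). That call was lost without the library term, with DESeq2, with at most 15% mitochondrial UMIs and with another random split of the genes, with adjusted p between 0.0580 and 0.248, while the fold change stayed between 1.06 and 1.22 over all alternatives. Gja1 was the 1 member called higher in this comparison, in which 6.19% of all tested genes were called higher and 6.01% lower.

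**Figure D2:**
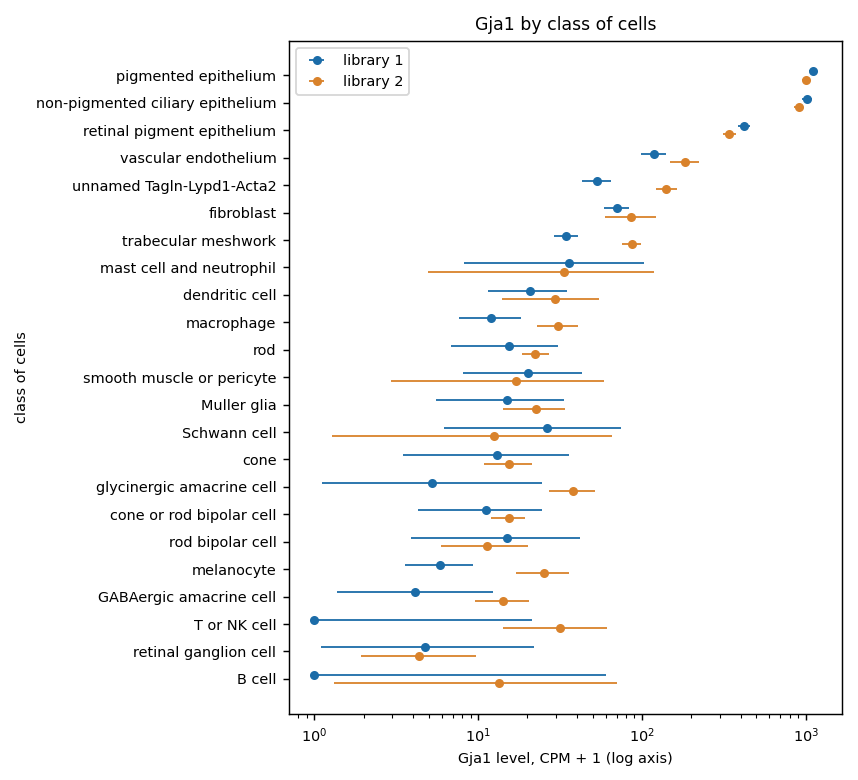
Gja1 level (CPM + 1, log axis) in each class, ordered from the highest mean, with 1 point per library and exact Poisson 95% intervals for counting error. The pigmented and non-pigmented classes lie near 1000 CPM, retinal pigment epithelium at 419 and 340.0 CPM, and most other classes well below these.

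Outside these epithelia, the plot of Gja1 by class shows a step down. Vascular endothelium had 117 and 182 CPM, the unnamed Tagln, Lypd1 and Acta2 class had 52.1 and 140.0 CPM, fibroblasts had 69.4 and 85.3 CPM, and trabecular meshwork cells had 33.4 and 85.8 CPM. The ranges of neighbours in this order overlapped. Endothelium (log2 fold change 1.98 ± 0.29, adjusted p = 9.63e-07), fibroblasts (1.29 ± 0.32, adjusted p = 0.00204) and the unnamed class (1.27 ± 0.29, adjusted p = 9.61e-04) were called higher than the mean of the other classes by edgeR, where 14.9%, 15.7% and 15.7% of all tested genes were. Gja1 was called lower in 6 classes. Of all tested genes, 5.92% were called lower in GABAergic amacrine cells, 5.71% in rod bipolar cells, 4.07% in mixed bipolar cells, 5.53% in cones, 2.9% in melanocytes and 6.09% in rods, which are those classes. All 6 calls were lost with at most 15% mitochondrial UMIs (edgeR adjusted p = 1.0 for each, with log2 fold changes of -1.07 to -2.08). In that setting B cells, which had 0 and 1 Gja1 UMIs with all cells, had 0 in both libraries. The calls in melanocytes (adjusted p = 0.0546) and rods (0.0973) were also lost without the library term, and that in rods by 2 further alternatives. Muller glia, a retinal glial cell, had 13.9 and 21.4 CPM of Gja1, no more than T or NK cells of library 2. Whether that level is background was not tested.

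**Figure D3:**
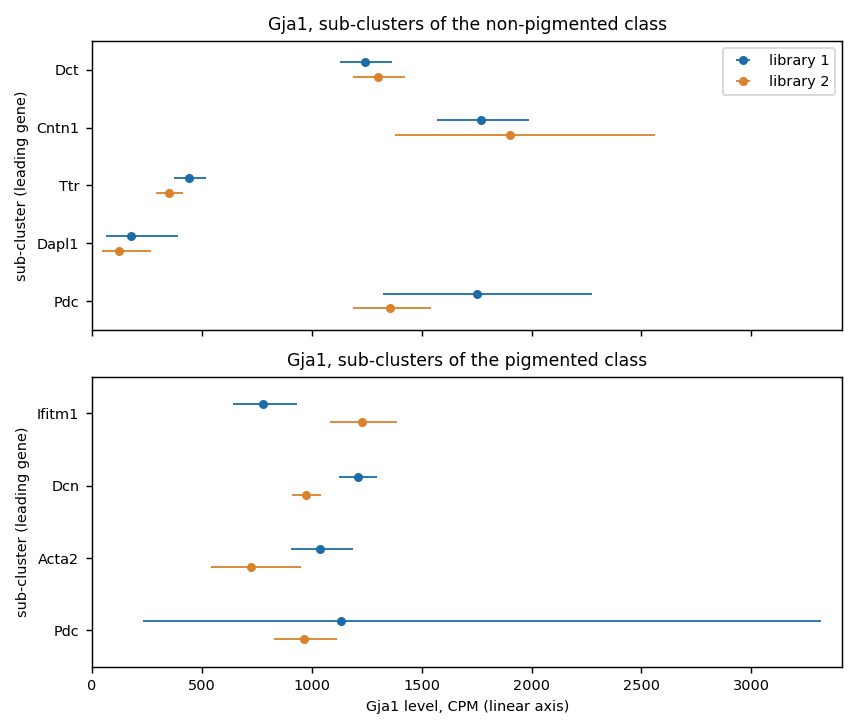
Gja1 level (CPM, linear axis) in the sub-clusters of the non-pigmented class (top) and of the pigmented class (bottom), each named by its leading gene, with 1 point per library and exact Poisson 95% intervals. The non-pigmented sub-clusters range from 123 to 1902 CPM, and the pigmented ones from 725 to 1228 CPM.

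Within the layers, Gja1 ranged more widely over the sub-clusters of the non-pigmented class than over those of the pigmented class. Sub-clusters were formed without any connexin gene, but they were singled out after their values were seen, so no test is given. In the non-pigmented class, the sub-cluster led by Cntn1, Tyrp1 and Gpx3 (53 and 8 cells) had 1771 and 1902 CPM, and the one led by Dct, Gpnmb and Pmel (20 and 18 cells) had 1242 and 1301 CPM. By contrast, the sub-cluster led by Ttr, Igfbp4 and Dcn (37 and 33 cells) had 443 and 350 CPM of Gja1, with exact Poisson intervals of 375 to 520 and 292 to 415.

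Few of the 11 markers of the non-pigmented class were compared over its sub-clusters. These values therefore do not show which sub-cluster is most typical of the class. The low sub-cluster led by Ttr had the highest levels of 3 of those markers. It had 1921 and 2296 CPM of Optc, which encodes the vitreous protein opticin, 1241 and 461 CPM of Wfdc1, and 198 and 252 CPM of Pdyn, against 0 to 41.2 CPM of Pdyn in the other sub-clusters. Its Tyrp1 level was 198 and 230 CPM, against 1482 and 929 CPM in the sub-cluster highest in Gja1. Its cells were deep, with medians of 5629 and 8279 UMIs, against 2699 and 2284.5 UMIs in that sub-cluster. A further non-pigmented sub-cluster with 22 and 27 cells and 1299 and 1584 median UMIs had 6 Gja1 UMIs in each library (179 and 123 CPM). The sub-cluster led by the photoreceptor gene Pdc (10 and 59 cells) had 1751 and 1356 CPM of Gja1. The part of depth and of other transcripts in the Gja1 levels was not tested.

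Among pigmented cells the Myh11-rich sub-cluster, whose leading genes Acta2, Tagln and Myh11 are those of contractile cells, had 1038 and 725 CPM of Gja1 (40 and 14 cells). The other pigmented sub-clusters had between 778 and 1228 CPM, and the order of the sub-clusters differed between the libraries. With 14 cells in library 2, the Myh11-rich sub-cluster was below the minimum of 20 cells, so the comparison planned for it was not fitted.

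The share of cells with a Gja1 UMI followed the same order of classes. In the non-pigmented class it was 73.2% (exact binomial 95% interval 65.2% to 80.3%) in library 1 and 63.4% (55.1% to 71.3%) in library 2, and in the pigmented class 82.9% (75.6% to 88.7%) and 83.1% (77.5% to 87.8%). Retinal pigment epithelium had 72.7% and 57.0%, and T or NK cells had 0% and 8.96%. Median depths were 3302.5 and 2778 UMIs in the non-pigmented class, 4917.5 and 3751 UMIs in the pigmented class, 4430 and 3506 UMIs in retinal pigment epithelium, and 2411 and 3693 UMIs in T or NK cells. Thinned to 1000 UMIs per cell, leaving out shallower cells, the shares were 52.0% and 43.4% in the non-pigmented class, 65.9% and 59.3% in the pigmented class, and 33.0% and 29.0% in retinal pigment epithelium.

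**Figure D4:**
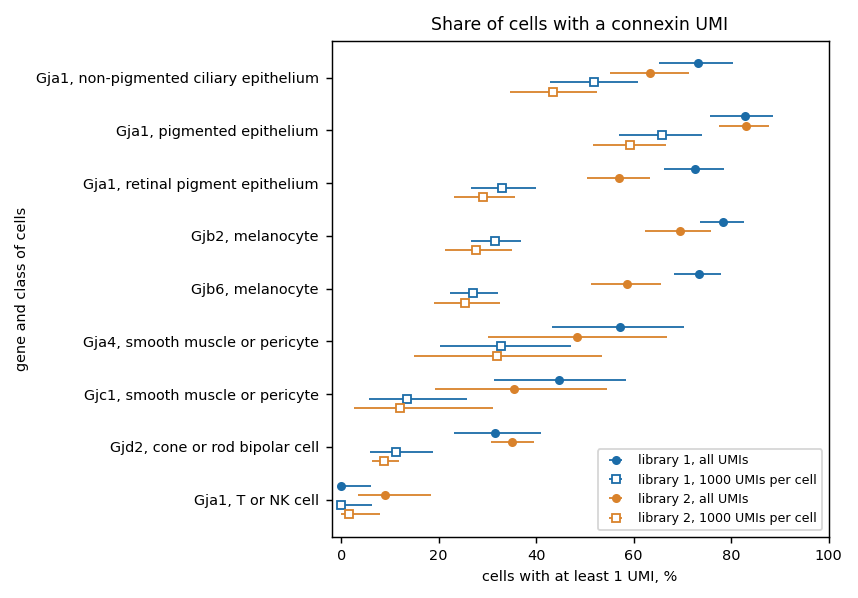
Percent of cells with at least 1 UMI of a connexin gene in selected classes, from all UMIs (filled circles) and after thinning to 1000 UMIs per cell (open squares), with exact binomial 95% intervals for each library. For Gja1 both layers keep a larger share than retinal pigment epithelium after thinning, and T or NK cells lie near 0.

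Most of the Gjb2 and Gjb6 signal came from melanocytes, the pigment cells of neural crest origin in the stroma. Gjb2 had 421 CPM in library 1 (1129 UMIs) and 379 CPM in library 2 (437 UMIs) in melanocytes, against at most 11.9 CPM in any other class. These were 96.2% and 79.3% of all Gjb2 UMIs of the libraries. Gjb6 had 334 CPM (894 UMIs) and 326 CPM (376 UMIs) in melanocytes, which were 96.6% and 85.5% of its UMIs. Both genes were called higher in melanocytes than in the other classes (edgeR adjusted p = 9.79e-21 for Gjb2 and 1.93e-24 for Gjb6), in a class where 15% of all tested genes were called higher. The level in melanocytes over that in all other cells pooled was 176-fold and 93.8-fold for Gjb2, and 197-fold and 144-fold for Gjb6.

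Pigmented epithelium had few UMIs of either gene. Gjb2 had 2 and 1 UMIs and Gjb6 had 1 and 3 UMIs there. In the non-pigmented class Gjb2 had 2.20 and 10.1 CPM and was not called against the other classes (edgeR adjusted p = 0.239). Besides melanocytes, Gjb6 was called higher in the non-pigmented class (edgeR adjusted p = 0.0313) and in rods (adjusted p = 0.00413). Its levels were 5.49 and 5.04 CPM in the non-pigmented class and 6.19 and 5.65 CPM in rods. These levels rest on 5 and 5 UMIs and on 3 and 27 UMIs, in classes where 16.4% and 20.2% of all tested genes were called higher. Of the 27 rod UMIs of library 2, 24 were in 1 of the 3 rod clusters (12.8 CPM), in which 4 melanocyte markers and 4 pigmented markers also stood out. The other rod clusters had 2.17 CPM and 0 UMIs, and the part of pigment-cell RNA was not tested. Without the 5% of cells with the most UMIs neither class was called (adjusted p = 0.512 in the non-pigmented class and 0.251 in rods). DESeq2 also lost the non-pigmented call (0.0627), and the other random split of the genes lost the rod call (0.174).

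Gjb2 and Gjb6 lie next to each other on chromosome 14 (GRCm38), with Gjb2 at 57098600 to 57104702 and Gjb6 at 57123303 to 57133611, both on the minus strand and 18.6 kb apart. Gja3, a lens connexin gene 40.5 kb from Gjb2 on its other side, had 2 and 0 UMIs in all cells. Of the 8 members, 7 had an entry in the RefSeq promoter table (GRCm38.p6). The 250 bases before the start of Gjb2, of Gjb6 and, for comparison, of Gja1 are shown because the first pair were high in the same cells. Both strands were searched, and capitals mark the matches. The GC box was searched as GGGCGG. The AP-1 motif was searched as TGANTCA. The M box core, which MITF, the master regulator of melanocytes, binds, was searched as CATGTG. The E box was searched as CACGTG. The TATA box was searched as TATAAA. No match overlapped another.
Gjb2, chr14:57104703-57104952, minus strand: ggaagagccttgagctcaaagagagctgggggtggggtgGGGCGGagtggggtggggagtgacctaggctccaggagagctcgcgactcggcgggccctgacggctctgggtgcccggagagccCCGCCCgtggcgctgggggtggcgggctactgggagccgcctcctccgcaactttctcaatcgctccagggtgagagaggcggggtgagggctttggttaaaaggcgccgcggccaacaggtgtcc
Gjb6, chr14:57133612-57133861, minus strand: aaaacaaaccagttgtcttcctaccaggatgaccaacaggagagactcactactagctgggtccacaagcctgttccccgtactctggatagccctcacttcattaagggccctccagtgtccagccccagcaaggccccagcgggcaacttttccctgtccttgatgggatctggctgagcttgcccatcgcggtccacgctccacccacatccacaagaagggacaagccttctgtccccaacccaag
Gja1, chr10:56377050-56377299, plus strand: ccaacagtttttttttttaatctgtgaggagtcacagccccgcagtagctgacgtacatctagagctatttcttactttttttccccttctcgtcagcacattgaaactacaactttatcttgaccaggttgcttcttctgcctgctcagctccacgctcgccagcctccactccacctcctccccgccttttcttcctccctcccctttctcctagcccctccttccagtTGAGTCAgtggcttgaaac
The Gjb2 window held 2 GC boxes, the Gja1 window held 1 AP-1 match, and the Gjb6 window held none of the 5 motifs. Among 32851 promoter windows of the same length, 32.7% held a GC box, 6.75% an AP-1 match, 12.3% CATGTG, 6.02% CACGTG and 12.4% TATAAA. The absence of CATGTG and CACGTG from the Gjb2 and Gjb6 windows says only that these letters are not there.

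A Gjb2 UMI was found in 78.4% and 69.4% of melanocytes (31.5% and 27.8% after thinning to 1000 UMIs), against 0% and 1.49% of T or NK cells. Many melanocytes carried UMIs of both genes. In library 1, 216 of 334 melanocytes had both Gjb2 and Gjb6, and in library 2, 100 of 193 did. Among cells with a Gjb6 UMI, 88.2% and 88.5% also had Gjb2, against 51.7% and 42.5% of the cells without. After thinning to 1000 UMIs per cell the shares were 25.8% and 27.3% among cells with Gjb6, against 33.6% and 27.9% among the rest, so at equal depth the share was not higher in cells with Gjb6. The median depth of melanocytes was 7615.5 UMIs in library 1 and 4440 UMIs in library 2.

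Gjc3 (chromosome 5, 137953461 to 137963098, minus strand) was found mainly in Schwann cells and melanocytes. Schwann cells, the glia of peripheral nerves, had 185 CPM in library 1 (22 UMIs, exact Poisson 95% interval 116 to 280) and 57.6 CPM in library 2 (5 UMIs, 18.7 to 134), from 42 and 32 cells. Melanocytes, which like Schwann cells derive from the neural crest, had 28.4 CPM (76 UMIs) and 21.7 CPM (25 UMIs). Of all Gjc3 UMIs, Schwann cells held 21.4% and 15.2%, and melanocytes 73.8% and 75.8%. Both were called by edgeR (adjusted p = 2.57e-09 in Schwann cells, where 5.08% of all tested genes were called higher, and 2.11e-10 in melanocytes), and neither by DESeq2 (adjusted p = 0.759 and 0.583). The unnamed class was also called by edgeR (adjusted p = 0.0323), from 3 and 1 UMIs, and not by DESeq2 (0.951) or without the 5% of cells with the most UMIs (0.362). Macrophages had 0 and 0 Gjc3 UMIs, as did Muller glia.

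Gja4, a vascular connexin gene on chromosome 4 (127311421 to 127314039, minus strand), was highest in the smooth muscle or pericyte class. That class had 372 CPM (116 UMIs, exact Poisson 95% interval 307 to 446) in library 1 and 377 CPM (47 UMIs, 277 to 501) in library 2, and vascular endothelium had 88.8 CPM (103 UMIs) and 85.0 CPM (43 UMIs). The ranges of these classes did not overlap. Both were called higher than the mean of the other classes (edgeR adjusted p = 2.59e-17 and 7.35e-14), where 9.3% and 14.9% of all tested genes were called higher. Lower levels that were also called occurred in the unnamed class, with 22.0 and 20.3 CPM, and in trabecular meshwork, with 70 and 29 UMIs (adjusted p = 6.20e-08 and 6.82e-08), where 15.7% and 18.4% of all tested genes were called higher. Of the 2 trabecular clusters, the Chil1-led one held 67 and 22 of these UMIs (24.9 and 17.5 CPM), and the Myoc-led one had 2.23 and 5.98 CPM. With the other random split of the genes, in which a cluster led by Chil1 carried fibroblast markers as well and left the class, the log2 fold change of the remaining trabecular class was -0.80 (adjusted p = 1.0).

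Gjc1 (chromosome 11, 102799579 to 102819700, minus strand) shared the vascular classes and was also found in amacrine neurons. The smooth muscle or pericyte class had 141 CPM (44 UMIs) in library 1 and 169 CPM (21 UMIs) in library 2 of Gjc1, and endothelium had 87.0 CPM (101 UMIs) and 57.4 CPM (29 UMIs). GABAergic amacrine cells, inhibitory interneurons of the retina, had 62.7 CPM (40 UMIs) and 64.4 CPM (122 UMIs), overlapping the range of endothelium, and 20.7% of all tested genes were called higher in them. All 3 classes were called higher (edgeR adjusted p = 1.89e-10, 1.07e-09 and 2.06e-09), as were the unnamed class and trabecular meshwork (adjusted p = 7.48e-06 and 1.34e-04). Cones, rods and macrophages were called lower (adjusted p = 0.0177, 0.00335 and 0.0392), where 5.53%, 6.09% and 3.22% of all tested genes were called lower. All 3 lower calls were lost without the 5% of cells with the most UMIs (adjusted p = 1.0 for each), where T or NK cells had 0 Gjc1 UMIs in both libraries, and that in macrophages also without the library term (0.0618) and at resolution 0.5 (0.0882).

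**Figure D5:**
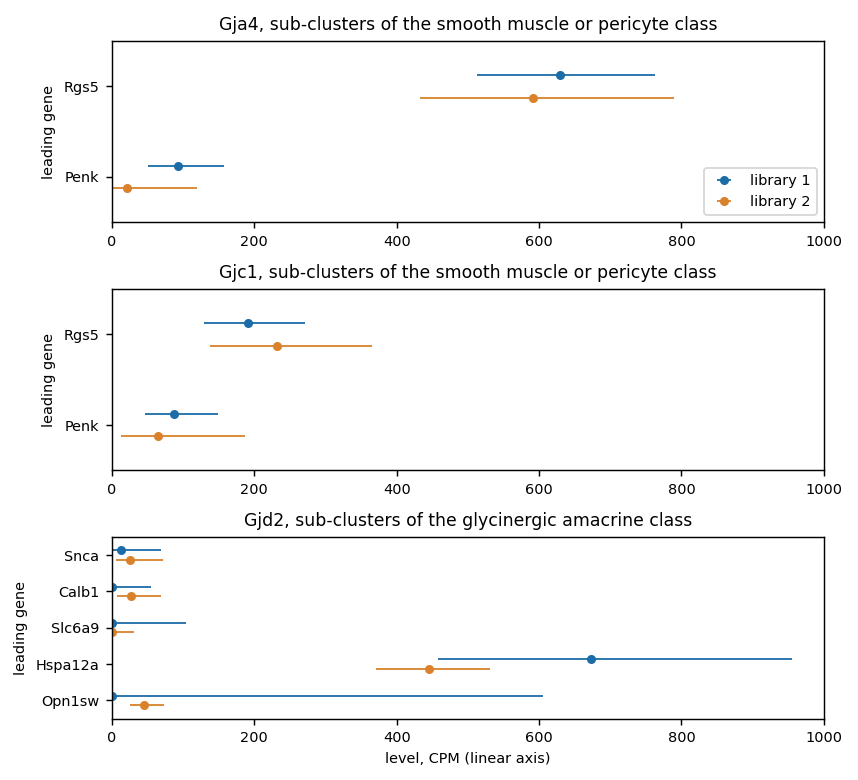
Levels (CPM, linear axis) of Gja4 (top) and Gjc1 (middle) in the sub-clusters of the smooth muscle or pericyte class, and of Gjd2 (bottom) in the sub-clusters of the glycinergic amacrine class, with exact Poisson 95% intervals for each library. The Rgs5-led sub-cluster has 629 and 592 CPM of Gja4, and the Hspa12a-led one has 673 and 445 CPM of Gjd2.

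Levels of these genes differed between the sub-clusters of the smooth muscle or pericyte class, as the plot of sub-cluster levels shows. Its Rgs5-rich sub-cluster (36 and 25 cells), which also carried the pericyte gene Kcnj8 at 277 and 463 CPM, had 629 and 592 CPM of Gja4 and 191 and 232 CPM of Gjc1. The sub-cluster rich in the smooth muscle gene Cnn1 (974 and 619 CPM; 20 and 6 cells) had no Kcnj8 UMI, and it had 93.4 and 21.3 CPM of Gja4 (14 and 1 UMIs) and 86.7 and 64.0 CPM of Gjc1 (13 and 3 UMIs). In endothelium, the sub-cluster rich in the lymphatic genes Ccl21a and Prox1 (32 and 18 cells) had 23.8 and 10.0 CPM of Gja4 (5 and 1 UMIs) and 28.6 and 60.2 CPM of Gja1. These sub-clusters were likewise described after their values were seen and were not tested.

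Gja5, the remaining vascular connexin gene, on chromosome 3 (96904693 to 97077416, plus strand), was hardly detected. All cells together held 4 UMIs in library 1 and 1 UMI in library 2. In the bilayer it had 1.10 and 0 CPM in the non-pigmented class, and 0 CPM in each library in the pigmented class. Vascular endothelium had 0 UMIs in each library, which allows up to 2.59 CPM in library 1 and 5.93 CPM in library 2 (3 counts of the class total per library), and the smooth muscle or pericyte class also had 0, which allows up to 9.61 and 24.1 CPM.

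Gjd2, the connexin gene of electrical synapses on chromosome 2 (114009601 to 114013619, minus strand), was highest in neurons. Glycinergic amacrine cells had 135 CPM (32 UMIs) in library 1 and 145 CPM (145 UMIs) in library 2, mixed bipolar cells had 124 CPM (61 UMIs) and 67.8 CPM (297 UMIs), and GABAergic amacrine cells had 62.7 CPM (40 UMIs) and 39.1 CPM (74 UMIs). Rods had 39.2 and 40.2 CPM, and cones had 27.9 and 37.9 CPM. All 5 classes were called higher than the other classes (edgeR adjusted p = 1.37e-08, 6.89e-08, 3.87e-05, 1.72e-04 and 0.00226 in that order), where 17.1% of all tested genes were called higher in the glycinergic class, 20.9% in mixed bipolar cells, 20.7% in GABAergic amacrine cells, 20.2% in rods and 18.4% in cones. Rod bipolar cells, whose light signal reaches the cone pathway through amacrine cells, had 4.64 and 17.6 CPM (1 and 17 UMIs). Outside neurons, Gjd2 reached 27.6 CPM in Muller glia and 21.3 CPM in fibroblasts of library 2, against 0 and 0.530 CPM in library 1. Whether these levels are background was not tested.

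Most of the glycinergic signal came from 1 sub-cluster. Led by Hspa12a, it had 8 and 49 cells and held 31 of 32 and 123 of 145 Gjd2 UMIs of the class, at 673 and 445 CPM. The other sub-clusters had at most 44.7 CPM. The sub-cluster highest in the glycine transporter gene Slc6a9, with 16 and 45 cells, had 0 and 0 Gjd2 UMIs. One other sub-cluster carried the horizontal cell genes Lhx1 and Calb1, so the class held more than amacrine cells.

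Most of the other 15 connexin and pannexin genes had fewer than 20 UMIs in a library. Panx1 had 66 and 81 UMIs. Panx2 (59 and 273 UMIs) was highest in retinal ganglion cells, the output neurons of the retina, at 60.0 and 71.9 CPM (16 and 85 UMIs). Panx1 and Panx2 encode pannexins, relatives in fold that form single-membrane channels. Panx2 was the 1 gene of this list that passed the filter. It was not called between the layers (edgeR adjusted p = 0.254) or between pigmented and retinal pigment epithelium. It had 0 and 0 UMIs in the non-pigmented class and 1 and 5 UMIs in the pigmented class. Other classes, such as Schwann cells, also had 0 UMIs of Panx2 in both libraries, so it could not be called in the bilayer against the other classes.

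Genes whose products bind, traffic or anchor connexins were set beside the members, from a list of 18 that all passed the filter. Between the layers 0 were called higher and 0 lower (edgeR), 0 and 0 by DESeq2, and 6 of the 18 had an unadjusted p under 0.05 by edgeR, against 1184 of all 7072 tested genes. In the bilayer against the other classes 7 were called higher and 0 lower (6 and 1 by DESeq2), where 18.1% of all tested genes were called higher and 2.39% lower, and the median log2 fold change of the list was 0.77, against 0.19 over all tested genes. Dbn1, whose product drebrin binds connexins to actin, had a log2 fold change of 1.70 ± 0.31 (adjusted p = 4.26e-05). Cdh2, the gene of N-cadherin, had 1.70 ± 0.23 (adjusted p = 2.02e-07), with 99.9 and 111 CPM in the non-pigmented class, 67.3 and 57.8 CPM in the pigmented class and 47.5 and 75.4 CPM in all classes outside these epithelia pooled. Ctnna1, the gene of the cadherin partner alpha-catenin, had 1.46 ± 0.15 (adjusted p = 6.73e-10). Cdh5, the endothelial cadherin gene, was called (adjusted p = 2.94e-07) but had only 8.78 and 9.07 CPM in the non-pigmented and 10.4 and 12.3 CPM in the pigmented class, against 564 and 433 CPM in endothelium. The fit weighs every class equally on the log scale, so such a call can stand beside a higher pooled level elsewhere. Cdh5 had 0 UMIs in both libraries in 7 of the 22 classes, Dbn1 in 2 and Cdh2 in 1, and fitted values against such classes depend on the prior count.

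Pigmented epithelium against retinal pigment epithelium gave calls in both directions for this list, with 3 higher and 4 lower of 18, where 6.19% of all tested genes were called higher and 6.01% lower. Cdh5 (10.4 and 12.3 CPM, against 0 and 0.710 CPM in retinal pigment epithelium), Cdh2 (log2 fold change 1.42 ± 0.39, adjusted p = 0.00981) and Dbn1 (1.24 ± 0.41, adjusted p = 0.0392) were higher in pigmented epithelium (edgeR). Ezr, the gene of the microvillar linker ezrin, was lower in pigmented epithelium, with 60.0 and 100.5 CPM, against 747 and 578 CPM in retinal pigment epithelium (log2 fold change -3.36 ± 0.38, adjusted p = 2.65e-08). Src, the gene of a kinase that phosphorylates the Gja1 product, had -1.81 ± 0.42 (adjusted p = 0.00253), and, like Dbn1, lost its call with at most 15% mitochondrial UMIs (0.109 for Src and 0.391 for Dbn1). Dbn1 was also not called without the library term (0.0662). Cnst, whose product consortin takes part in connexin trafficking, had a log2 fold change of -1.46 ± 0.33 (adjusted p = 0.00172). Nov was also called lower, from 0 and 0 UMIs in pigmented epithelium and 3 and 15 UMIs in retinal pigment epithelium (adjusted p = 0.0460), and 7 alternatives lost that call.

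For members with at least 50 UMIs in each library, the most similar genes were found by Pearson's r of log2(CPM + 1). The r was taken over 44 profiles (22 classes in each of 2 libraries), as a description: the profiles share library and depth, and no p is given. Only the 16609 genes kept out of the clustering were searched, so no cell type marker could be picked. Predicted, RIKEN, mitochondrial, ribosomal and listed genes, and those under 50 UMIs in either library, were left out. For Gja1 the most similar of the searched genes were Gsta3 (r = 0.819), Calml4 (0.801) and Sgk1 (0.793). Gjb2 and Gjb6 had r = 0.809 with each other, and both shared Cort (0.741 and 0.773) and Cyp4b1 (0.725 and 0.845) among their 3 most alike, with Hhatl (0.708) for Gjb2 and Hpse (0.747) for Gjb6. Gja4 was most like P2ry14 (0.879), Mrvi1 (0.832) and Foxs1 (0.784), and Gjc1 most like Il34 (0.794), Grb14 (0.791) and Inpp5a (0.744). Gja4 and Gjc1 had r = 0.636 with each other. Gjd2 was most like Esrrg (0.872), Pacsin1 (0.843) and Slc24a2 (0.825), and between Gjd2 and Gja1 r was -0.26.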

How the data were processed

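Droplet-based single-cell RNA sequencing of 2 pooled wild-type libraries was deposited by the authors as raw UMI counts per gene and barcode, and the file headers name Cell Ranger 3.1.0. CASAVA 1.8, Seurat and the builds mm10 and GRCm38 appear in the submitters' processing notes with no role. No cell annotation was used. The lowest barcode held 500 UMIs. Of 33456 gene IDs, 32655 were found in the GENCODE M21 annotation.

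Cells with at least 500 genes and at most 30% mitochondrial UMIs were clustered with scanpy 1.11.5 (igraph 0.11.9, Python 3.11.15; 2000 variable genes, 30 principal components, 15 neighbours, Leiden resolution 1) on a random group of 16847 genes that held the 224 markers of 35 cell types and no connexin, pannexin or partner gene. The remaining 16609 genes were kept for testing. A cluster was named from at least 3 markers that reached 0.5 UMIs per 10000 and 4 times the median of the other clusters. This rule was written after the clusters were seen, so differences from the authors' own cell types may come from these names. Doublets were kept and no caller was run. Cdh5, on both the marker and the partner list, named no cluster. Sub-clusters used 20 components at resolution 0.5.

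Counts were summed per class and library and tested with edgeR 4.0.16 (R 4.3.3, limma 3.58.1; TMM, filterByExpr with a minimum count of 10), with library as a block because the sums of a library come from the same pool. The 44 sums left 21 residual degrees of freedom. Each contrast averages classes equally on the log scale. Retinal ganglion cells (15 cells in library 1) stayed out of the fit. The edgeR p-values rest on how the classes vary between the 2 pools after the library term, a spread shared over the 22 classes. They do not measure the spread between animals, and no test between libraries was made. The code was tested on simulated data. DESeq2 1.42.0, other filters, resolutions, gene splits and normalization were alternatives. Poisson intervals for levels, Clopper-Pearson intervals for shares and limits for a count of 0 used scipy 1.17.1 and cover counting error only.

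The members and lists were chosen with earlier results of these data known. The text names all 8 members and other connexins and pannexins with at least 20 UMIs in each library. It also names up to 4 called partner genes per direction and comparison by fold change. For members with at least 50 UMIs in each library, it names the 3 genes most like them among those kept for testing. Gja3 was named after its values were seen, and some genes that these rules would name are not reported here. The comparison of the Myh11-rich sub-cluster with other pigmented cells was planned and could not be fitted.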

Additional observations from a re-analysis of the deposited data

How the results depend on the processing

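Over the alternatives, the recomputed main values were counts of calls and shares of cells. A count was taken as kept when it stayed within a set ratio of the main count, so single calls could change. A share was kept when it lay within the standard deviation of the 2 libraries around their mean. Each library alone meets that by construction. By these rules 138 values were kept, 5 counts fell, 2 counts rose and 5 shares moved further. Neither rule could show a reversal. Among fold changes of single genes, 588 values kept their call or stayed within the replicate spread, 37 lost a call, 50 moved further and 1 reversed. Without the filter on low counts 1 member (Gja4) was called lower between the layers, against 0 with it. With at most 15% mitochondrial UMIs 2 members (Gja1 and Gjb6) were called higher in the bilayer, against 1, and 3 member and class pairs were called lower, against 9. No member was called higher in pigmented than in retinal pigment epithelium, 0 against 1, in the fit with no replicate block (Gja1 adjusted p = 0.248), with DESeq2 (0.15), with at most 15% mitochondrial UMIs (0.107) and with the other random split of the genes (0.0580). The cause was not tested. The fit with no replicate block called 362 genes between the layers (495 with it), 1380 in the bilayer and 686 between pigmented and retinal pigment epithelium, and 27 member and class pairs higher and 6 lower. The 3 lower pairs lost without the block were Gja1 in melanocytes and in rods and Gjc1 in macrophages, and no higher pair called with it was lost. With the other random split of the genes Gja4 in trabecular meshwork was reversed, at -0.80, where 1 cluster had left that class. DESeq2 called 1075 genes higher and 385 lower in the bilayer, so 73.6% of its calls were higher, against 88.3% of edgeR's. It lost the Gjc3 calls in melanocytes (adjusted p = 0.583) and Schwann cells (0.759). Thinning to 1000 UMIs per cell gave mean shares of cells with a UMI of 47.7% for Gja1 in non-pigmented and 62.6% in pigmented cells, 29.6% for Gjb2 and 26.2% for Gjb6 in melanocytes, and 32.3% for Gja4 in the smooth muscle or pericyte class, by construction lower than with all UMIs. Leaving out a library gave shares of 63.4% to 73.2% for Gja1 in non-pigmented and 82.9% to 83.1% in pigmented cells, 69.4% to 78.4% for Gjb2, 58.5% to 73.4% for Gjb6, 48.4% to 57.1% for Gja4 and 11.8% to 19.7% for Gjd2 in glycinergic amacrine cells. With 1 library left there is 1 sum per class, so fold changes have no test there, and for Gja1 between the layers they were -0.16 and -0.11. At resolution 0.5 the amacrine classes had no value of their own. Counts limit Gja5, which had 4 and 1 UMIs in all cells, and Gjc3 in Schwann cells, with 22 and 5 UMIs.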

Other observations

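Melanocytes and Schwann cells also varied within their classes, in sub-clusters described after their values were seen. In melanocytes of library 1, Gjb2 ranged from 275 to 822 CPM over the sub-clusters and Gjb6 from 227 to 474 CPM. Among Schwann cells, the Fabp7-led sub-cluster (24 and 2 cells) had 220 CPM of Gjc3 (17 UMIs) in library 1 and 0 UMIs in library 2.

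Of the connexin genes outside the 8, Gja10 had 10 of its 14 UMIs of library 2 in the glycinergic amacrine class, which includes cells with horizontal cell genes, and 1 UMI in library 1. It was singled out after its values were seen.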
